A study of Mus musculus with 10 samples.

Results

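The large and small expanded clones of CD8 T cells in mouse colorectal carcinoma are compared here, in tumours profiled cell by cell for their messenger RNA and for their T cell receptor (TCR). The series is named for tumour-infiltrating lymphocytes, and its 5 RNA libraries each have a matched TCR library, 10 samples in all. Replicates 1 and 2 of the untreated group are called U1 and U2, S1 is the 1 library of the S. chamaejasme group, named for the plant Stellera chamaejasme, and C1 and C2 are replicates 1 and 2 of S. chamaejasme plus anti-PD-1 (the combination), in which an antibody also blocks the checkpoint receptor PD-1. No group received the antibody alone. The labels give no strain, age, cell line or sorting step and do not say whether the libraries of a group came from separate animals, so that p-values measure only the spread between these libraries. The titles of the untreated samples follow another pattern than those of the treated ones; whether they were handled together is not stated, and treatment and handling cannot be told apart.

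A cell was taken as a CD8 T cell when it had at least 300 genes, at most 10% mitochondrial unique molecular identifiers (UMIs, counts of captured RNA molecules), a productive alpha (TRA) and beta (TRB) chain, at least 2 UMIs of Cd8a and Cd8b1 together and 0 UMIs of Cd4. Cells of a library with the same V genes and the same nucleotide sequence of the third complementarity-determining region (CDR3) in both chains formed a clone, whose size was counted over all cells with both chains in the TCR file. Of 22590 barcodes, 2405 met the rule. Expanded clones, those of 2 or more cells, held 634 of these cells in 156 clones. Large clones, of 5 or more cells, held 359 cells in 39 clones, small clones, of 2 to 4 cells, held 275 cells in 117 clones, and the remaining 1771 cells had a receptor seen once. Just inside the threshold stood 11 clones of 5 cells, and just outside it 16 clones of 4 cells. The members were thus chosen by measured values, namely receptor sequence, clone size and the UMIs of Cd8a, Cd8b1 and Cd4, and differences in clone size are given as a description only.

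A T cell that meets its antigen divides, and its daughters inherit the same rearranged receptor, so the number of cells with one receptor serves as a natural record of expansion. CD8 T cells that have expanded in a tumour usually carry cytotoxic granules, in which granzymes are the proteases that enter a target cell, and surface receptors that hold them in tissue, such as CXCR6, which binds the chemokine CXCL16. The CDR3 spans the join of the gene segments and is the most variable stretch of each chain. Its first codon encodes a conserved cysteine and its last a conserved aromatic residue.

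The receptors of the largest CD8 clone of each library are printed first, since they identify the clones that carry the most cells. Clones are numbered by their count of CD8 cells within their library, which can be below the size that made them large. S1-18 and U1-10 held 1 CD8 cell each, and U1-9 held 2. Sequences run from 5′ to 3′ as deposited, with the first and last codon of the CDR3 in capitals.
U1-1 alpha: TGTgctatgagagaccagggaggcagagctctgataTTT
U1-1 beta: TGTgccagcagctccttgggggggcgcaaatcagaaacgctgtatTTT
U2-1 alpha: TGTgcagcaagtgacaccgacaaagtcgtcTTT
U2-1 beta: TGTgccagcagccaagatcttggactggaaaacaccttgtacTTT
S1-1 alpha: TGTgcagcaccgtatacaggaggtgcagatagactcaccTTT
S1-1 beta: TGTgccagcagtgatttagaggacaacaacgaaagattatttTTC
C1-1 alpha: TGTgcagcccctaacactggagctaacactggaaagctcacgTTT
C1-1 beta: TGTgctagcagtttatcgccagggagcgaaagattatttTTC
C2-1 alpha: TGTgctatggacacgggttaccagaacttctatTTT
C2-1 beta: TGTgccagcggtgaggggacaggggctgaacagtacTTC

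These 5 clones held 8, 17, 43, 8 and 10 CD8 cells in that order, and no pair of them shared a chain. The alpha chain of U1-1, TRAV16N joined to TRAJ15, was found with the identical nucleotide sequence in U2-2, a large clone of 8 CD8 cells in the other untreated library, and in a small clone of C2. The beta chains of U1-1 and U2-2 differed, TRBV10 against TRBV1. The alpha chain of C2-1, TRAV13-1 joined to TRAJ49, was carried by 7 CD8 clones in 4 libraries, and 3 of these were large (C2-1, S1-17 and U1-7), each with another beta V gene. No large clone was found in a second library with both chains. Between libraries, 255 cell barcodes were shared over the 10 pairs, and the 2 shared among CD8 cells had different CDR3 sequences.

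The alpha V gene TRAV14D-2 was carried by 10 of 39 large clones (25.6%), 13 of 117 small clones (11.1%) and 32 of 1771 single-cell clones (1.81%), against 124 of 4774 clones (2.60%) of CD4 cells, which were cells with a Cd4 UMI and no Cd8a or Cd8b1 UMI. These shares pool the libraries, and the order of large and small clones did not hold in each. Large and small clones stood at 30.0% and 27.3% in U1 and at 40.0% and 6.67% in U2. They stood at 22.2% and 5.71% in S1 and at 0% and 11.5% in C2. The 1 large clone of C1 carried it, as did 5.26% of its small clones. TRAV14D-2 was not alone in the pooled order. TRAV16N was carried by as many large clones, 10 (25.6%), and by 18 small (15.4%) and 144 single-cell clones (8.13%). In all 10 large clones with TRAV14D-2 the CDR3 opened with the same 8 bases, and in 7 of them codon 4 was CCN, a proline codon. These 7 alpha chains follow, with codon 4 in capitals.
U1-2: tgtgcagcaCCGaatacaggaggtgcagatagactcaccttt
U1-3: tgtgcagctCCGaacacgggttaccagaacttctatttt
U1-9: tgtgcagcaCCCgcgggattaaccttc
U2-3: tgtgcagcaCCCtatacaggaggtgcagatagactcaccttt
S1-1: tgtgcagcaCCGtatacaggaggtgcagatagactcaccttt
S1-2: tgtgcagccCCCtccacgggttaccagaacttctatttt
C1-1: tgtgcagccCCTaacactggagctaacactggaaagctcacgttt

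The alpha chains of S1-1 and U1-2 differed at 1 of 42 bases, as did those of S1-1 and U2-3, and those of U1-2 and U2-3 differed at 2. All 3 used TRAJ45. S1-1 and U1-2 also shared the beta V gene TRBV13-3, while U2-3 used TRBV13-1. Those of S1-2 and U1-3 differed at 4 of 39 bases, and both clones used TRBV1. Among TRAV14D-2 clones, the codon 4 motif was present in 7 of 10 large (70.0%), 5 of 13 small (38.5%) and 9 of 32 single-cell CD8 clones (28.1%), and in 1 of 124 CD4 clones (0.807%). With any alpha V gene, the same opening and codon 4 were found in 7 large, 5 small and 17 single-cell CD8 clones. They were also found in 15 of 4774 CD4 clones, so the count in CD4 clones depends on the V gene assigned. The large clones with the motif came from 4 of 5 libraries (3 in U1, 1 in U2, 2 in S1, 1 in C1) and none of the 5 in C2, where 2 small clones had it. The motif was noticed in the large clones, so these shares are a description with no test. TRAV14 genes have near-identical copies in the mouse genome, and which copy was used is uncertain; the whole TRAV14 family was used by 12 large (30.8%), 18 small (15.4%) and 97 single-cell CD8 clones (5.48%) and by 492 CD4 clones (10.3%). The plot of alpha chain use shows these shares.

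**Figure D1:**
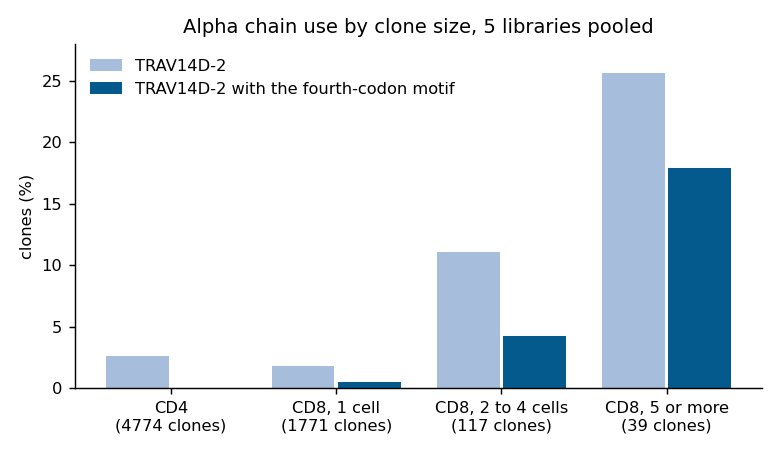
Share of clones (%) with the alpha V gene TRAV14D-2 (light bars) and with TRAV14D-2 and CCN at codon 4 (dark bars), in CD4 clones and in CD8 clones of 1 cell, 2 to 4 cells and 5 or more cells, over 5 libraries pooled. TRAV14D-2 was in 1.81% of single-cell and 25.6% of large CD8 clones, but in 0 of 5 large clones of C2. TRAV14D-2 with the motif was in 1 of 4774 CD4 clones, too few to see. With any alpha V gene, the same opening and codon 4 were in 15 of these CD4 clones.

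Averaged per library, the alpha CDR3 was 41.6 nucleotides long in large and 41.1 in small clones, and the beta CDR3 43.5 and 43.1. The mean differences of 0.51 ± 1.76 and 0.44 ± 1.53 nucleotides (SD, n = 5 libraries) did not exceed the spread (two-sided exact sign-flip permutation tests, p = 0.688 and 0.625, adjusted p = 0.688 for each), and with 5 libraries this test cannot pass 0.05. The beta V gene TRBV1 was used by 7 of 39 large (17.9%), 6 of 117 small (5.13%) and 113 of 1771 single-cell clones (6.38%). Among the 7 are S1-2 and S1-4, whose beta chains are identical, so that this chain is counted for both.

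The rule divided some clones, because a T cell can carry a second alpha chain and only the alpha chain with more UMIs was used. S1-2 and S1-4 had one beta chain, and S1-3 and S1-5 had another in common.
S1-2 and S1-4 beta: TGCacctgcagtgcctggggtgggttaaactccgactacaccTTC
S1-3 and S1-5 beta: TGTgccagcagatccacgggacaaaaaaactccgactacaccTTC

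The other alpha chain was also present in 16 of 35 cells of S1-2, 15 of 21 of S1-4, 11 of 26 of S1-3 and 6 of 14 of S1-5.

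The share of CD8 cells in large clones differed widely between libraries. It was 19.6% in U1 (47 of 240 cells, 95% Wilson interval 15.1 to 25.1), 12.9% in U2 (42 of 326, 9.67 to 17.0), 35.5% in S1 (230 of 647, 32.0 to 39.3), 1.44% in C1 (8 of 557, 0.73 to 2.81) and 5.04% in C2 (32 of 635, 3.59 to 7.03). The 2 combination libraries lay below both untreated ones and S1 lay above all others. U1 had 10 large clones, U2 5, S1 18, C1 1 and C2 5. The chance that 2 CD8 cells drawn from a library belonged to one clone was 0.534% in U1, 0.442% in U2, 1.21% in S1, 0.0394% in C1 and 0.0750% in C2. The group means were 16.2% ± 4.74 in untreated and 3.24% ± 2.55 in the combination (SD, n = 2 each). A minimum of 5 cells depends on how many cells were captured, and cells with both chains numbered 1144 in U1, 2089 in U2, 3338 in S1, 3809 in C1 and 3679 in C2; their part in these shares was not tested. Clones that made up at least 0.5% of the CD8 cells of their library were also counted. They held 41.7% of these cells in U1, 21.8% in U2, 37.2% in S1, 4.49% in C1 and 7.56% in C2. By this measure U1 stood above S1, but this cutoff also depends on the number of CD8 cells. It took in 30 of 32 expanded clones in U1 and 16 of 20 in U2. In S1 it took in 20 of 53, in C1 6 of 20 and in C2 9 of 31. The intervals cover counting error only. The plot of clone sizes shows how steeply the sizes fell within S1.

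**Figure D2:**
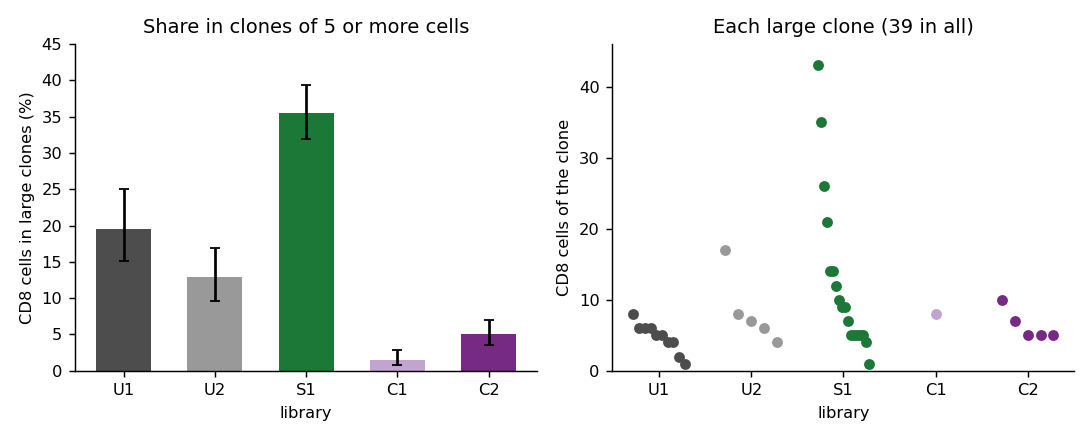
Left, CD8 cells in clones of 5 or more cells (% of the CD8 cells of each library), with 95% Wilson intervals as error bars. Right, the number of CD8 cells of each of the 39 large clones, ordered by size within a library. S1 reached 35.5% and had the clone of 43 cells, while C1 had a single large clone of 8 cells.

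RNA libraries held 8763821 to 27759543 UMIs. CD8 cells of large clones had median UMIs of 3879 to 5671 per library, those of small clones 4018 to 5191, and medians of 1.90% to 2.40% and 2.08% to 2.36% mitochondrial UMIs. The 6 CD8 T cell markers, 2 of which chose the cells, summed to 4613 to 6745 CPM (UMI counts scaled to the same total for every sum) in large clones. Of 8 CD4 T cell markers, Cd4 (which the rule set to 0), Foxp3 and Il21 were at 0 in large clones. The list summed to 448 to 2296 in large (highest in C1) and 509 to 838 in small clones. Other members were detected: Ctla4 in 57.1% to 100% of large-clone and 51.9% to 74.6% of small-clone cells per library. Il17a reached 910 CPM in the large clone of C1, from 42 UMIs in 25.0% of its cells. The summed level of 10 myeloid markers was 5.46 to 43.3 CPM in large and 0 to 5.96 in small clones, that of 7 B and plasma cell markers 18.6 to 108 and 0 to 77.3, and that of 8 gamma delta and natural killer markers 0 to 65.0 and 11.6 to 49.6. Cd79a, Ms4a1, Csf1r and Ncr1 were at 0 in both classes. Of 410 filtered cells with the receptors of large clones, 12 had a Cd4 UMI and 39 had too few CD8 UMIs for the rule.

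Large clones were compared with small ones on UMIs summed per library and class, with the library as a block. C1 had 8 large-clone cells, fewer than the minimum of 10 cells per sum, so the fit used U1, U2, S1 and C2. Of the genes tested, 2 passed the threshold of an adjusted p under 0.05 in edgeR's quasi-likelihood test with Benjamini-Hochberg adjustment, of 2911 (0.0687%), and both were lower in large clones. They were Xcl1, which encodes the chemokine that attracts XCR1-bearing dendritic cells, and Cd7, which encodes an immunoglobulin-family protein of the T and natural killer cell surface. At an unadjusted p under 0.05 there were 122 genes (4.19%). DESeq2 called the same 2 genes, each with an adjusted p of 0.0498.

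Xcl1 (ENSMUSG00000026573, GRCm38 chromosome 1, 164931644 to 164935527, minus strand) had 55.9, 98.3, 45.4 and 91.8 CPM in large clones of U1, U2, S1 and C2, against 144, 336, 137 and 180 in small clones. It was lower in 4 of 4 libraries, and the classes did not overlap. The log2 fold change was −1.46 ± 0.20 (SE, adjusted p = 0.00361 by edgeR). In C1, Xcl1 had 0 UMIs in the large clone and 3 UMIs in the small ones, so that no fold can be given. Xcl1 transcripts were spread over clones: 25 of 39 large and 52 of 117 small clones had at least 1 UMI, and the clone with the most held 12.9% of the 85 UMIs of large and 14.7% of the 204 UMIs of small clones. Cells with a Xcl1 UMI were 10.6%, 26.2%, 10.4% and 15.6% of large-clone cells in U1, U2, S1 and C2, and 25.5%, 36.4%, 22.2% and 17.5% of small-clone cells.

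Cd7 (ENSMUSG00000025163, GRCm38 chromosome 11, 121036747 to 121039418, minus strand) had 214, 65.5, 177 and 223 CPM in large clones of U1, U2, S1 and C2, against 342, 217, 634 and 313 in small clones. It was lower in 4 of 4 libraries with a log2 fold change of −1.25 ± 0.20 (SE, adjusted p = 0.0107 by edgeR). The levels of the classes overlapped between libraries, since small clones of U2 stood below the large clones of C2. In C1, which was outside the fit, the level was 86.7 in the large clone and 541 in small clones. Cd7 was found in 38.3%, 23.8%, 33.5% and 43.8% of large-clone cells of U1, U2, S1 and C2 and in 52.7%, 33.3%, 58.0% and 41.3% of small-clone cells, so that in C2 the share of cells did not follow the level. Cd7 lost its call without S1 (−0.82, adjusted p = 0.546 by edgeR) and with clones sized over CD8 cells only (−1.16, adjusted p = 0.0896 by edgeR). Xcl1 lost its call with at most 4 cells taken per clone (−1.33, adjusted p = 0.0982 by edgeR), and both lost it when clones of 3 or more were set against clones of 2 (−1.19 and −0.80 for Xcl1 and Cd7, adjusted p = 0.0550 and 0.404).

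**Figure D3:**
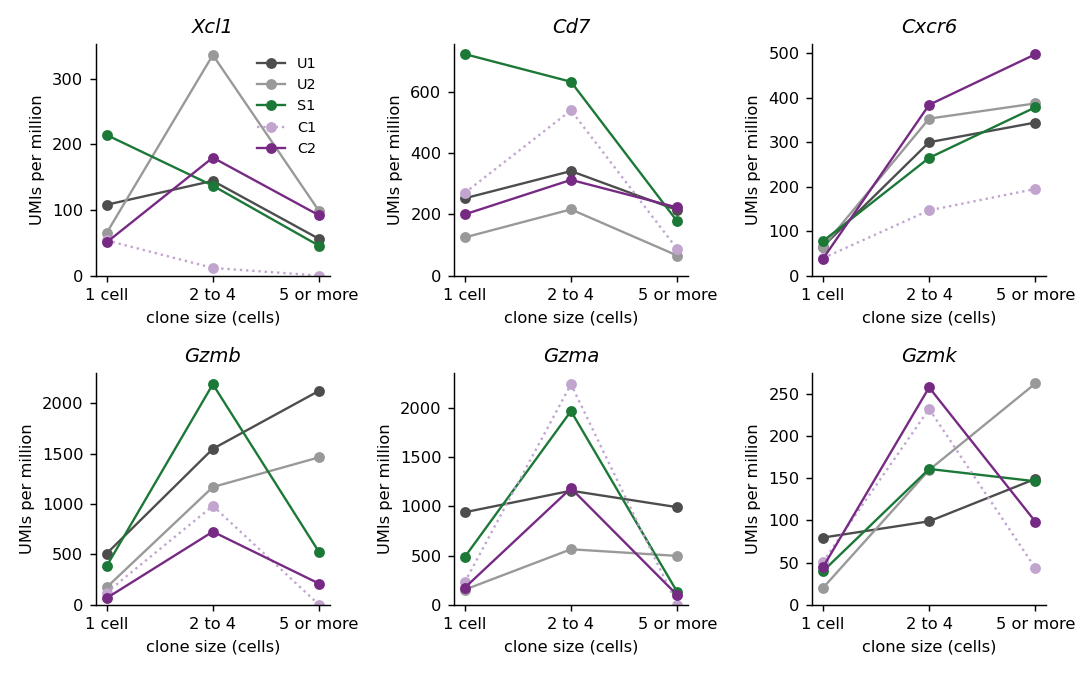
CPM of 6 genes in CD8 cells of single-cell clones, small clones (2 to 4 cells) and large clones (5 or more), with 1 line per library on linear axes; the dotted line is C1, whose large class is 8 cells of 1 clone. Xcl1 and Cd7 were lower in large than in small clones of U1, U2, S1 and C2, Cxcr6 was higher in large clones of every library, and Gzmb and Gzma were much lower in large clones of S1, C1 and C2 but not of U1 and U2.

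The panel of 35 cytotoxic, inhibitory, memory and residency genes held no gene that passed the test between large and small clones, of 25 tested. Ccl5 (a chemokine stored in and released by cytotoxic cells) differed by −0.02 ± 0.06 on the log2 scale (SE, adjusted p = 0.996 by edgeR). Among granule genes, Nkg7 (a granule membrane protein) differed by −0.05 ± 0.16 and Fasl (the ligand of the death receptor Fas) by −0.15 ± 0.16 (adjusted p = 0.996 for each by edgeR). Larger differences were those of Gzma, −1.83 ± 0.45 and lower in 4 of 4 libraries, and Gzmb, −0.67 ± 0.30 and lower in 2. Neither passed (adjusted p = 0.286 and 0.996 by edgeR). Ifng, the gene of interferon gamma, differed by 0.33 ± 0.22 and Tnf by 0.55 ± 0.23 (adjusted p = 0.996 for each by edgeR). Of the memory genes, Tcf7 (a transcription factor of stem-like and naive T cells) differed by −0.14 ± 0.19 and Il7r (the interleukin 7 receptor) by −0.07 ± 0.14 (adjusted p = 0.996 for each by edgeR). Pdcd1, which encodes PD-1, was 13.97, 10.9, 11.1 and 65.6 CPM in large clones of U1, U2, S1 and C2 and 26.6, 194, 44.7 and 99.2 in small ones, from 27 and 95 UMIs over 5 libraries. Its log2 fold change of −1.82 ± 0.41 did not pass the test (adjusted p = 0.217 by edgeR), but did without cells with 2 or more productive TRB chains (−2.10, adjusted p = 0.0305 by edgeR). Itgae, the integrin chain CD103 of tissue-resident cells, differed by −0.55 ± 0.17 (adjusted p = 0.658 by edgeR).

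By gene list, none of the 16 lists of T cell functions held a called gene other than Xcl1, which stood in the lists of residency and of cytokines. Among killer lectin-like receptors, 4 of 13 genes were tested, and their median log2 fold change was −0.60, beside 0.01 over all 2911 genes. The residency list had a median of 0.20 over 12 genes, the type I interferon list 0.21 over 8, the immediate early list 0.10 over 16, the naive and memory list −0.10 over 12, and the granule list −0.12 over 11. In the immediate early list, Nfkbia, the inhibitor of NF-kappa-B that is itself induced by it, was 2957, 2418, 1937 and 2157 CPM in large clones of U1, U2, S1 and C2 and 2269, 2422, 1114 and 1200 in small ones. On this scale large and small clones of U2 were level. The log2 fold change was 0.51 ± 0.11 (SE, adjusted p = 0.188 by edgeR), higher in 4 of 4 libraries after normalisation. It passed the test under several other settings, such as with C1 included or without the largest clone of each library.

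Between small and single-cell clones the change was far broader. Over 5 libraries, 527 of 4865 genes tested rose in small clones (10.8%) and 440 fell (9.04%) at an adjusted p under 0.05 in edgeR's quasi-likelihood test, 19.9% in all, and 29.8% had an unadjusted p under 0.05. DESeq2 called 354 and 248. Among genes with a mean of at least 50 CPM, a log2 difference of at least 1 in either direction was seen in 5.31% between small and single-cell clones and in 0.259% between large and small clones, with median SEs of 0.16 and 0.22. These 2 comparisons share the small-clone sums, and their values are set side by side only.

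Of the panel, 19 of 30 genes tested rose in small clones and 5 fell. Gzmb rose by 2.47 ± 0.14, Cxcr6 by 2.20 ± 0.16, Ifng by 1.98 ± 0.18, Pdcd1 by 1.99 ± 0.30 and Gzmk by 1.87 ± 0.19 on the log2 scale (SE, n = 5 libraries, each higher in 5 of 5 and past the threshold). Klrc1, the inhibitory receptor NKG2A, rose by 2.24 ± 0.13. S1pr1, the receptor for exit from tissue, fell by 3.08, Ccr7 fell by 2.51 and Klf2, the transcription factor that keeps naive cells in circulation, fell by 1.86. By list, 10 of 12 tested granule genes and 10 of 12 residency genes rose, 9 of 11 exhaustion genes rose, and 13 of 17 naive and memory genes fell with none higher. Xcl1 and Cd7 did not pass the test here (0.53 ± 0.28 and 0.31 ± 0.13, adjusted p = 0.220 and 0.0860 by edgeR), and the single-cell level of Xcl1 ranged from 50.6 to 214 CPM over libraries.

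Cxcr6 was detected in a higher share of large-clone than of small-clone cells in the 4 libraries compared. The share of cells with a UMI was 68.1% and 52.7% in U1, 64.3% and 63.6% in U2, 61.7% and 46.9% in S1, and 78.1% and 55.6% in C2 for large and small clones. The difference was 13.4 ± 9.17 percentage points (SD, n = 4 libraries) and positive in 4 of 4, with p = 0.125 in a two-sided exact sign-flip permutation test (adjusted p = 0.375 over 3 genes), the smallest p that 4 libraries allow. In C1 the share was opposite, with 2 of 8 large-clone cells and 41.9% of small-clone cells, although its level was 195 CPM in the large clone and 147 in small ones. Thinned to 1500 UMIs per cell, the difference was 11.3 points. Without the largest clone of each library it was 10.9 ± 12.9 points and positive in 3 of 4, with 56.0% in large and 63.6% in small clones of U2. The level of Cxcr6 differed by 0.33 ± 0.13 on the log2 scale (adjusted p = 0.993 by edgeR), and by 0.088 with at most 4 cells per clone. Cxcr6 is at GRCm38 chromosome 9, 123806475 to 123811760, plus strand.

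Granzymes B and K did not separate large from small clones in this way. Gzmb was found in 74.5%, 40.5%, 37.4% and 31.2% of large-clone cells of U1, U2, S1 and C2 and in 58.2%, 48.5%, 53.1% and 41.3% of small-clone cells. The difference was −4.36 ± 14.2 points (SD, n = 4, exact sign-flip permutation p = 0.625, adjusted p = 0.938), higher in 1 library and lower in 3. Gzmk, whose product is typical of memory-like effector cells, was found in 40.4%, 45.2%, 31.3% and 34.4% of large-clone cells and 32.7%, 36.4%, 38.3% and 47.6% of small-clone cells. The difference was −0.91 ± 10.9 points (SD, n = 4, exact sign-flip permutation p = 1, adjusted p = 1), higher in 2 libraries and lower in 2. As background, resting CD4 cells had Gzmb in 0.912% to 2.67% of cells, Gzmk in 0.234% to 1.60% and Cxcr6 in 2.26% to 6.85%, at median depths of 3992 to 5672 UMIs per cell. In U1, U2, S1 and C2 both classes were above this background for all 3 genes. These 3 genes were named with earlier results of these data known.

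In the test of treatment, the difference between large and small clones was set against treatment, as large over small in the combination relative to untreated. C2 was the only combination library with enough large-clone cells, so that 1 residual degree of freedom was left, no spread within the combination was measured, and the fit lends C2 the spread of the untreated pair. The values are therefore given with no p and describe C2 against U1 and U2. By edgeR's quasi-likelihood test, 5 of 2911 genes passed (0.172%), and 137 did at an unadjusted p under 0.05 (4.71%). Gzma, the tryptase granzyme A, and Gzmb were relatively lower in large clones of C2, and Ifi27l2a (an interferon-induced gene), Nkg7 and S100a4 (a calcium-binding protein of effector and memory T cells) were relatively higher.

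Gzma was 992 and 497 CPM in large clones of U1 and U2, and 1159 and 564 in small ones. In C2 it was 98.4 in large and 1184 in small clones. The interaction was −3.35 ± 0.39 on the log2 scale (SE), and Gzma was also the 1 gene that DESeq2 called. In S1, which did not enter this contrast, Gzma was 130 in large and 1968 in small clones. In the single large clone of C1 no Gzma UMI was found in 46162 UMIs, against 2241 CPM in the small clones of C1. A floor of 3 counts over the class is 65.0 CPM. It covers counting error only, and with 8 cells of 1 clone no fold can be given. Few cells carried the large-clone level of the untreated libraries. In U1 the 5 cells of U1-6 held 69.5% of 213 Gzma UMIs, and without this clone the level was 332 CPM. In U2 a single cell of U2-3 held 53.8% of 91 UMIs, and without that clone the level was 274 CPM. In both libraries large clones stood below small ones with these clones included, and further below without them. No clone was left out of the small class. In C2, 10 of 15 Gzma UMIs came from 1 cell. These clones were left out after their values were seen.

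Gzmb was 2123 and 1463 CPM in large clones of U1 and U2 and 1547 and 1168 in small ones. It was 210 against 725 in C2 and 522 against 2188 in S1. In C1 it had 0 UMIs in the 8 cells of the large clone, against 981 CPM in small clones. In U1 a single cell of U1-6 held 33.6% of the Gzmb UMIs of large clones, and in U2 a single cell of U2-3 held 40.7%; without these clones the levels were 1437 and 809 CPM. The interaction was −2.16 ± 0.33, and DESeq2 did not call it. Gzmk was higher in large clones of U1 and U2 (149 and 262, against 98.8 and 160) and lower in C2 (98.4 against 257). Its interaction was −2.02 ± 0.52, which was not called. With C1 and its 8 large-clone cells added to the fit, the Gzmk interaction was −2.27 and was called. In the other direction, S100a4 was 69.8 and 87.3 in large clones of U1 and U2 and 125 and 205 in small ones, but 308 against 143 in C2 (2.17 ± 0.52). Nkg7 was 689 and 644 against 851 and 1066 in U1 and U2, and 1534 against 939 in C2 (1.24 ± 0.28). Ifi27l2a was 424 and 311 in large clones of U1 and U2 and 338 and 912 in small ones, and 577 against 254 in C2 (1.82 ± 0.36). These 3 genes were no longer called once C1 was added to the fit. Whether S1 differed from untreated in this way was not tested. Averaged over the 4 libraries, Gzma differed between large and small clones by −1.83 ± 0.45 (adjusted p = 0.286 by edgeR) and Gzmb by −0.67 ± 0.30 (adjusted p = 0.996 by edgeR). Without S1 these were −0.98 and −0.10, and without U1 −2.58 and −1.14. Gzma passed the test without U1, without U2, with C1 added, with thinned cells (adjusted p = 0.0340 by edgeR), with at most 4 cells per clone (adjusted p = 0.0150 by edgeR) and with no filter on low counts.

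In the 3 named genes, most large clones held both cells with a UMI and cells without one. Large-clone cells had a mean of 3.42 UMIs of Gzmb, 0.638 of Gzmk and 1.59 of Cxcr6, so that at these depths a cell that expresses the gene can lack a UMI, and the shares do not count expressing cells. Of 36 large clones with at least 3 CD8 cells, Gzmb was found in every cell of 5, in no cell of 4 and in some cells of 27. The share of Gzmb cells per clone had a median of 41.5%. Gzmk was found in some cells of 33 clones, in no cell of 3 and never in every cell, with a median of 35.0% and a highest share of 83.3%, in U2-4. Cxcr6 was in every cell of 3 clones, in no cell of 2 and in some cells of 31, with a median of 64.6%. In U1 the 8 such clones had Gzmb in at least 1 of every 2 cells, whereas in C2 it was found in 1 of 5 to 3 of 5 cells of the 5 clones.

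Named clones show the range. U1-6, of 5 CD8 cells, had Gzmb in 5 of 5 cells at 9093 CPM, the highest of the large clones, with Gzma also in 5 of 5. U2-4 went the other way, with Gzmk in 5 of 6 cells at 1374 CPM, Gzmb in 1 of 6 and Cxcr6 in 0 of 6. S1-9 had Gzmb in 0 of 9 cells, Gzmk in 2 and Cxcr6 in 5. C1-1 had Gzmb in 0 of 8 cells, which as a share of cells with a UMI allows up to 37.5% (3 of 8 cells) and does not limit cells that express the gene, and Cxcr6 in 2. The largest clone, S1-1, had Gzmb in 18, Gzmk in 9 and Cxcr6 in 30 of its 43 cells.

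The 2 pairs of S1 clones with a shared beta chain offer a comparison within 1 receptor. S1-2 and S1-4 had Gzmb in 22.9% and 28.6% of cells, Gzmk in 7 of 35 and 2 of 21 cells, and Cxcr6 in 71.4% and 57.1%. S1-3 and S1-5 had Gzmb in 34.6% and 7 of 14 cells, Gzmk in 53.8% and 57.1%, and Cxcr6 in 69.2% and 35.7%. Gzmk was thus found in most cells of both members of the TRBV19 pair and in few of both members of the TRBV1 pair, whereas Cxcr6 was further apart within the TRBV19 pair.

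**Figure D4:**
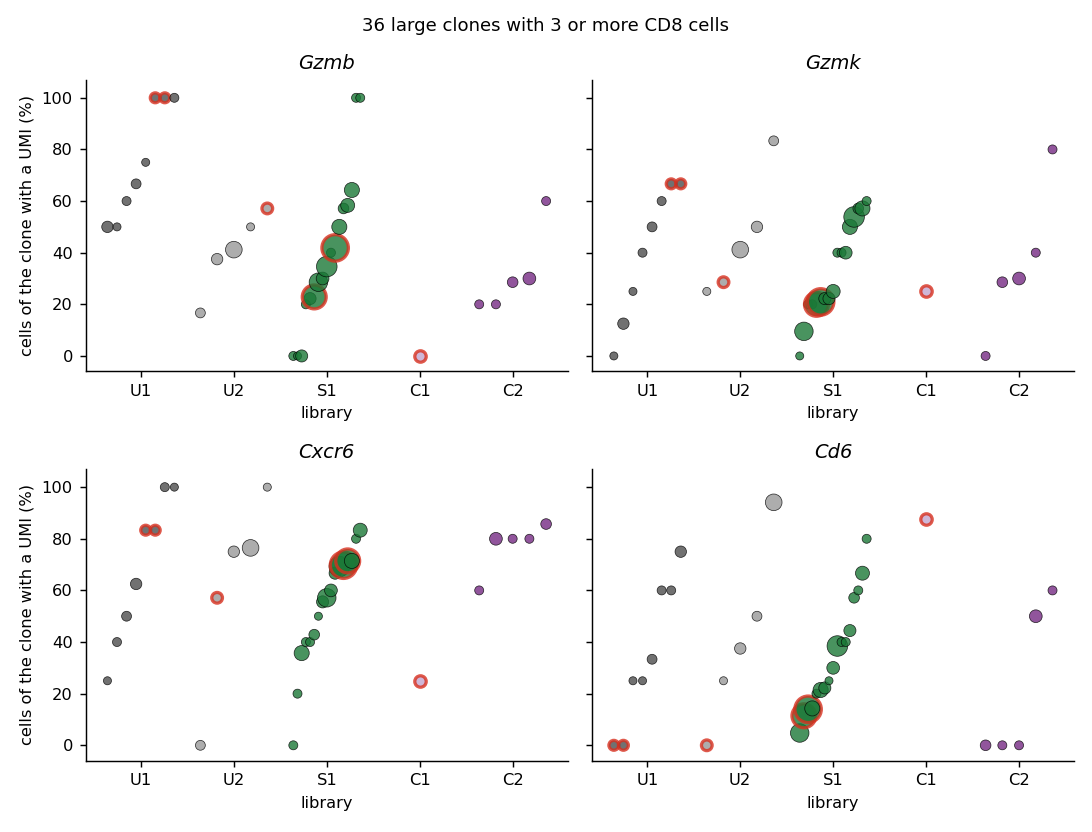
Each point is 1 of 36 large clones with at least 3 CD8 cells, its height the share of its cells with a UMI of the gene (%) and its area the number of cells; within a library, clones are ordered by that share, and red outlines mark TRAV14D-2 alpha chains with the codon 4 motif. Gzmb, Gzmk and Cxcr6 ranged from 0% to at least 83.3%, and Cd6 was in at most 6 of 43 cells in 5 of the 6 outlined clones. Some clones without a red outline were as low, such as C2-2 with Cd6 in 0 of 7 cells.

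The spread was divided into a part between clones and a part within them, after centring each library. For 76 expanded clones with at least 3 CD8 cells (489 cells), 6166 genes detected in at least 5% of cells were measured on log2 of UMIs per 10000 plus 1. The share of variance between clones had a median of 0.0016 over genes, with a 95th percentile of 0.0693. Gzmb stood at 0.162 (rank 16), Gzmk at 0.130 and Cxcr6 at 0.105, each above the 95th percentile. The rest, within clones, includes the counting error of single cells, which was not separated. For Gzmb the standard deviation between clones was 0.84 and within clones 1.91. In single libraries the Gzmb share was 0.174 in U1, −0.0585 in U2, 0.207 in S1, 0.297 in C1 (6 clones) and 0.121 in C2. Thinned to 1500 UMIs per cell, Cxcr6 was at 0.0386 and Gzmb at 0.0857, while Gzmk was at 0.139. These values are descriptions, and a negative estimate means less variance between clones than the cells within them would give.

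With clones of at least 3 CD8 cells, the 5 genes with the most variance between clones were Gzma (0.391), Cd6 (0.311), Cd5 (0.303), Ccl5 (0.250) and Ccr9 (0.249). CD5 and CD6 are related scavenger-receptor proteins of the T cell surface that modulate receptor signalling, and CCR9 is the receptor for the gut chemokine CCL25. With clones of at least 5 CD8 cells, Gzma was at 0.209, below Cd5 (0.289) and Cd6 (0.270), and without S1 it was at 0.296, again below Cd6 (0.383) and Cd5 (0.376). Thinned, Cd6 was at 0.145. Cd7 followed with 0.233 (0.134 with clones of at least 5 CD8 cells) and Klrc1 with 0.214. Xcl1, the other gene lower in large clones, was at −0.0153. It was found in 12.5% of large-clone cells, against 34.0% for Cd7. Counting error was not separated, so whether Xcl1 and Cd7 differed in their spread among clones was not tested. By list, 3 of 5 measured killer lectin-like receptors and 4 of 12 granule genes exceeded the 95th percentile, as did 3 of 9 cytokine and chemokine genes, 3 of 11 costimulation genes, 5 of 19 S100, annexin and cytoskeleton genes and 3 of 12 naive and memory genes, beside 0 of 11 exhaustion genes, 0 of 10 proliferation genes and 0 of 13 cytokine receptor genes. The plot of variance between clones sets these genes against all others.

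**Figure D5:**
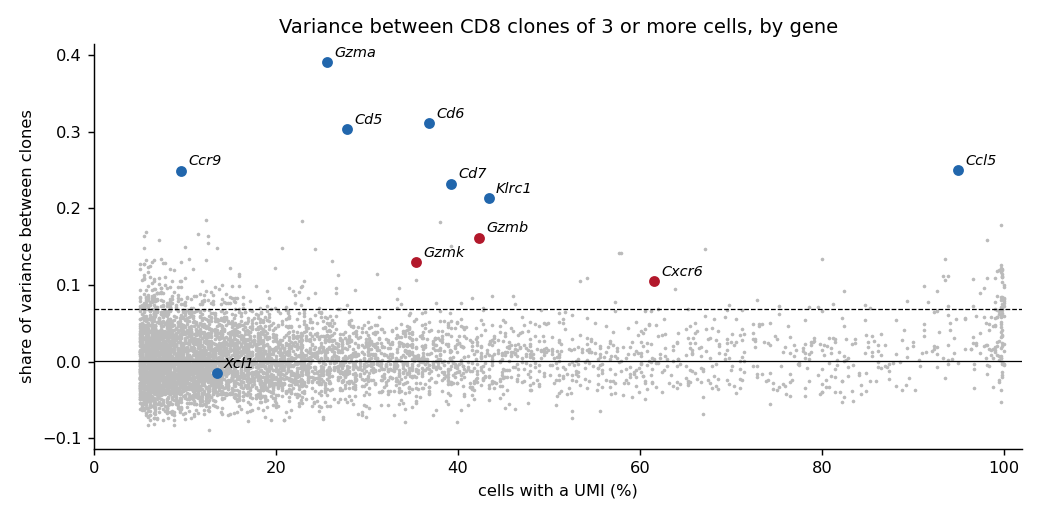
Share of variance between clones for each of 6166 genes (grey) against the share of the 489 cells with a UMI of the gene (%), in 76 CD8 clones of 3 or more cells; the solid line is the median over genes and the dashed line the 95th percentile. Gzma, Cd6 and Cd5 lie highest, Gzmb, Gzmk and Cxcr6 (red) lie above the dashed line, and Xcl1 lies near 0.

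Cd6 and Cd5 were detected in most cells of some large clones and in few of others. U2-1, a TRAV14D-2 clone without the motif, had Cd6 in 16 of 17 cells (94.1%) and Cd5 in 76.5%. In the 3 clones of nearly identical TRAV14D-2 and TRAJ45 alpha chains, Cd6 was found in 0 of 6 cells (U1-2), 0 of 7 (U2-3) and 6 of 43 (S1-1), and Cd5 in 16.7%, 0% and 9.30%. U1-3 and S1-2, the other pair of similar alpha chains, had Cd6 in 0 of 6 and 4 of 35 cells, and S1-4, which shares the beta chain of S1-2, in 1 of 21. C1-1, also with the motif, was unlike these, with Cd6 in 7 of 8 cells and Cd5 in 4 of 8. U1-9, also with the motif, had only 2 CD8 cells, with Cd6 in 1 and Cd5 in 2. Low Cd6 was not confined to clones with the motif. Without it, C2-2 had Cd6 in 0 of 7 cells, C2-4 and C2-5 in 0 of 5 each, and S1-6 in 2 of 14. Large-clone cells had a mean of 0.540 UMIs of Cd6 and 0.415 of Cd5, so that a cell without a UMI may express either gene. Between classes neither gene passed the test (Cd6 −0.41 ± 0.23 and Cd5 −0.33 ± 0.28 on the log2 scale, adjusted p = 0.996 for each by edgeR), and each was higher in large clones of 2 libraries and lower in 2. These clones were picked out after their values were seen.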

How the data were processed

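Droplet-based RNA libraries (5' 10x chemistry) and matched TCR libraries of 5 samples each were used. The authors deposited raw UMI counts per gene and cell and a table of TCR contigs; per the submitters' processing notes they were made with Cell Ranger 3.1.0 and STAR on mm10. The annotation release is not given in the sources used here. Coordinates are those of GRCm38 genes matched by identifier.

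The members, gene lists and alternatives were chosen with earlier results of these data known. Per cell, the productive TRA and TRB contig with the most UMIs was used. No doublet caller was run; cells with 2 or more productive TRB chains were kept and left out as an alternative. Counts were summed per library and clone class, with at least 10 cells in each sum, and tested with edgeR 4.0.16 (R 4.3.3; TMM, quasi-likelihood, library as block, Benjamini-Hochberg adjustment over all genes tested); DESeq2 1.42.0 was an alternative. The design foresaw 5 libraries for the share test, and 4 met the minimum. T cell receptor segments, Cd8a, Cd8b1, Cd4 and mitochondrial genes (285) were left out of tests. The block pairs the classes of 1 library, since both came from the same sample. CPM in the text are shares of all UMIs of a sum, without TMM. Levels are per UMI and not corrected for gene length. CDR3 lengths and shares of cells were tested by exact sign-flip permutation over libraries (scipy 1.17.1). The edgeR fits of large against small and of small against single-cell clones were run on simulated counts with 1 dispersion for all genes. The simulation did not cover the interaction, the permutation tests or the variance between clones.

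Genes named are Gzmb, Gzmk and Cxcr6, a panel of cytotoxic, memory, inhibitory and residency genes, genes past the threshold with a mean of at least 20 CPM and 1 sign in every library, up to 4 per list, and the 5 with the most variance between clones. Cd7 and Klrc1 in the variance result, and named clones other than the largest per library, were chosen after their values were seen.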

Additional observations from a re-analysis of the deposited data

Results flagged for a closer look

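In 5 genes the log2 ratio of large over small clones in C2 differed from that in the untreated libraries past the threshold of edgeR's quasi-likelihood interaction test: Gzma (−3.35), Gzmb (−2.16), Ifi27l2a (1.82), Nkg7 (1.24) and S100a4 (2.17). The combination side was C2 alone, with 32 large-clone cells in 5 clones, and the fit had 1 residual degree of freedom, so that a difference between the groups was not shown. Between the libraries, log2 of large over small CPM plus 1 was −0.26 in U1, −0.16 in U2, −3.90 in S1 and −3.56 in C2 for Gzma, and 0.42, 0.35, −2.05 and −1.77 for Gzmb. With C1 added, Gzma and Gzmb kept their calls, Gzmk gained one, and Ifi27l2a, Nkg7 and S100a4 lost theirs. DESeq2 called Gzma alone.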

How the results depend on the processing

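The count of 2 genes between large and small clones was 14 with no filter on low counts, 0 with no replicate block, 0 for clones of 10 or more against 2 to 4, 0 for 3 or more against 2, 6 without cells with 2 or more TRB chains, 4 without the largest clone of each library, 5 with cells thinned to 1500 UMIs, 4 with C1 added (chosen after seeing the data) and 1 to 5 with 1 library left out, the 1 without S1. Xcl1 and Cd7 were negative in each of these. Gzma passed without U1 (−2.58) and without U2 (−2.36). Between small and single-cell clones, DESeq2 called 602 genes and the fit with no replicate block 675. The interaction gave 1 gene by DESeq2 and 3 with C1 added; with 1 library left out of that wider fit it gave 2 to 10 (leaving out a library of the 4 could not be fitted). Gzmk between large and small clones ranged from −0.28 to 0.30 with 1 library left out (above 0 without C2) and turned to 0.19 without the largest clones and 0.20 with at most 4 cells per clone. Its share of cells turned to 0.0075 points thinned, 2.31 without the largest clones, 1.11 without S1 and 3.20 without C2, in a range from −4.17. The interaction of Cd7 turned to −0.87 without the largest clones, −0.055 with C1 added, and then −0.42 without U2 and −1.64 without C2, where Xcl1 was −3.22. Clones of at least 0.5% of CD8 cells held 41.7% in U1, 21.8% in U2, 4.49% in C1 and 7.56% in C2. This cutoff takes in smaller clones where fewer CD8 cells were captured. With 1 library left out, CDR3 length differed by −0.187 (without C1) to 0.942 nucleotides for alpha and −0.205 (without U2) to 0.822 for beta chains. Causes were not tested. Sums of as few as 32 cells, and 4 libraries, limit what could be detected between large and small clones.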
